A study of Mus musculus with 14 samples.

Results

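RNA-seq values of 10 genes of bone morphogenetic protein (BMP) signalling were examined in mouse cells and tissue labelled Qk-KO or WT. The target of the induced deletion was Qk, the gene of the RNA-binding protein quaking. The genes are the ligands Bmp4 and Bmp7, the type I receptors Bmpr1a and Bmpr1b, the inhibitory Smads Smad6 and Smad7, and the 4 Id genes Id1, Id2, Id3 and Id4. They were taken by symbol, and each of the 10 matched 1 of the 46983 genes in each of 2 deposited tables. The first table holds oligodendrocyte cultures that were grown out of neural stem cells, with 3 libraries labelled Qk-KO and 3 labelled WT at passages 7, 12 and 13. To differentiate them, IGF-1 at 100 ng/ml and the thyroid hormone T3 at 50 ng/ml were given. The labels also list the glutamine supplement GlutaMAX at 2 mM for every culture. The 3 Qk-KO descriptions name 40HT and the 3 WT descriptions name EtOH. Treatment and genotype cannot be told apart there, and the labels do not give a Cre driver for these cells. The second table holds corpus callosum, the large white matter tract between the hemispheres, from mice given tamoxifen at 8 weeks of age and dissected 4 days later. Its 4 Qk-KO animals were Plp-CreERT2;QKLoxP/LoxP and its 4 WT animals Plp-CreERT2;QKLoxP/+, all of an FvB/C57BL6 hybrid strain that the cultures share. The WT animals therefore also carried the Cre, 1 floxed copy and the tamoxifen, so the callosum comparison sets 2 floxed copies against 1. Plp-CreERT2 places an inducible Cre under the promoter of a myelin protein gene, so deletion is aimed at myelinating cells, whereas the RNA comes from every cell of the tract.

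BMPs are secreted ligands that bind type I and type II serine/threonine kinase receptors. The receptors phosphorylate Smad1, Smad5 and Smad9, which enter the nucleus with Smad4 and switch on target genes. Among the best known targets are the Id genes, whose proteins lack a DNA-binding domain and hold bHLH transcription factors inactive, and Smad6 and Smad7, which feed back on the pathway as inhibitors. In oligodendrocyte precursors BMP signalling is known to hinder differentiation and to favour an astrocyte fate, and Id2 and Id4 are known as inhibitors of oligodendrocyte maturation.

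The columns for single libraries hold fitted model means, so every library of a genotype has the same fitted CPM (counts per 1000000 fitted counts of a library). Levels are therefore given once per genotype, and errors are the standard errors (SE) of the authors' deposited table. Fitted counts summed to between 38325833 and 48912999 per culture library and between 15048646 and 27666519 per callosum library. A change was called at an adjusted p under 0.05 in the authors' DESeq2 test, and every log2 change is Qk-KO minus WT. By their descriptions and passages, each 40HT culture has an EtOH partner that shares its code, so the cultures form 3 pairs. The deposited fit held no term for these pairs, since its means within a genotype differ by a library factor alone. Nothing in the labels says whether the pairs came from separate animals, so the p-values there measure the spread between these libraries. Qk itself had 3277 CPM in cultures labelled Qk-KO and 1972 CPM in cultures labelled WT, and rose by 0.66 ± 0.14 (SE) in the authors' deposited table (adjusted p = 4.19e-05). In callosum Qk had 907 CPM in Qk-KO and 713 CPM in WT, with 0.32 ± 0.12 in the authors' deposited table (adjusted p = 0.162). A value for the whole gene is no check of the deleted exons, and so none of the group labels either.

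In culture, Bmp4 and Id1 rose and Bmpr1b and Id2 fell in libraries labelled Qk-KO, while in callosum Smad7 rose and no other member passed. The 4 of 10 members called in culture stood against 28.6% of the 17503 genes tested there, where calls are common. With 2 members higher and 2 lower, the background by direction was 13.3% higher and 15.2% lower. That split depended on the scaling, with 2336 genes higher and 2667 lower by the authors' size factors but 3054 higher and 2296 lower by library totals. In callosum the 1 member called stood against 2.32% of 19935 tested genes, of which 2.09% were higher. The median log2 change of the 10 members was 0.55 in culture and 0.11 in callosum, beside 0.01 and -0.01 over all genes tested in the same tables. At an unadjusted p under 0.05 there were 6 members in culture (4 higher, 2 lower) and 3 in callosum (all higher), beside 37.4% and 8.08% of all tested genes.

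**Figure D1:**
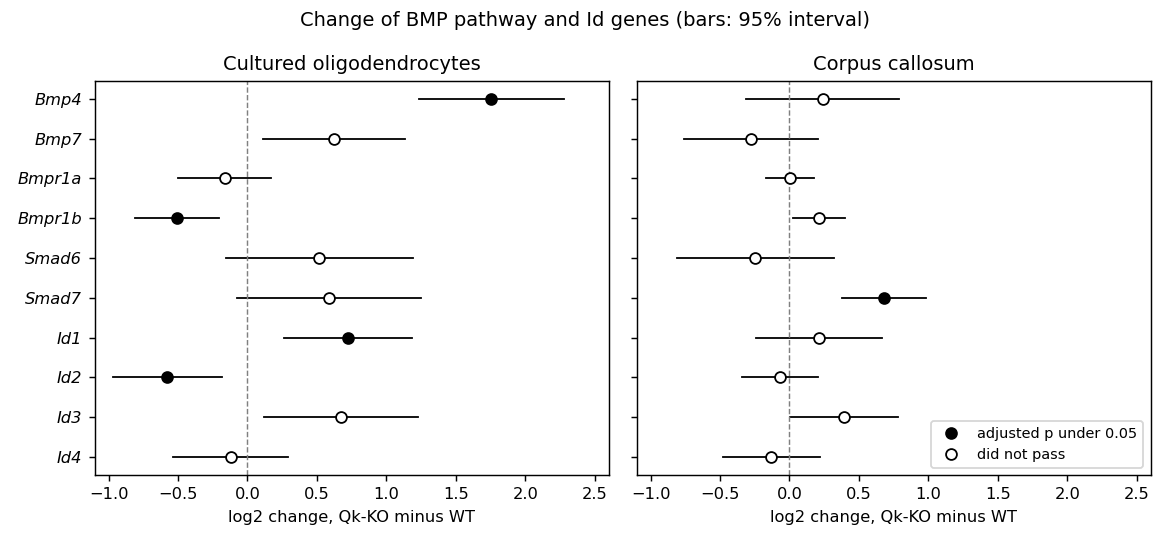
Log2 change (Qk-KO minus WT) of the 10 members in culture (left) and callosum (right), with bars for the 95% interval from the deposited SE and filled points for an adjusted p under 0.05. Bmp4 in culture lies farthest from 0, at 1.76, and Smad7 is the filled point in callosum, at 0.68.

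Of the ligands, Bmp4, which is used to turn precursors toward astrocytes in culture, showed the largest change of the 10 members. It had 68.0 CPM in cultures labelled Qk-KO and 19.1 CPM in those labelled WT. Its log2 change was 1.76 ± 0.27 in the authors' deposited table, or 3.38-fold, with a 95% interval of 2.36 to 4.84-fold and an adjusted p of 9.58e-10. By p it stood at rank 652 of the 17503 genes tested. In callosum Bmp4 was a low-count gene, with a mean of 57.3 normalized counts per library. Its level there was 3.09 CPM in Qk-KO and 2.58 CPM in WT, and the change of 0.24 ± 0.28 in the authors' deposited table left a 95% interval from -0.31 to 0.79. Bmp7, a ligand of the same receptors, had 16.3 CPM in cultures labelled Qk-KO and 10.04 CPM in those labelled WT. Its change of 0.62 ± 0.26 in the authors' deposited table missed the threshold (adjusted p = 0.0568). With only genes of at least 100 mean normalized counts tested it was 0.0455, and with library totals as the scale 0.0271, so this value sits on the border. In callosum Bmp7 had 7.24 CPM in Qk-KO and 8.65 CPM in WT, a change of -0.28 ± 0.25 in the authors' deposited table (adjusted p = 0.995).

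Of the receptors, 1 passed in culture and none in callosum. Bmpr1b, a type I receptor that binds BMP and growth differentiation factor ligands, had 82.3 CPM in cultures labelled Qk-KO and 111 CPM in those labelled WT. Its change in the authors' deposited table was -0.50 ± 0.15, which is 1.42-fold lower (adjusted p = 0.00589). In callosum it lay on the other side of 0, with 46.7 CPM in Qk-KO and 39.6 CPM in WT and a change of 0.21 ± 0.10 in the authors' deposited table (adjusted p = 0.445). Bmpr1a, the type I receptor with the wider tissue distribution, was measured with the best precision of the members in callosum. Its level there was 94.8 CPM in Qk-KO and 92.8 CPM in WT, and its change of 0.01 ± 0.09 in the authors' deposited table had a 95% interval of 0.89 to 1.13-fold. In culture Bmpr1a had 238 CPM in libraries labelled Qk-KO and 253 CPM in those labelled WT, with -0.17 ± 0.17 in the authors' deposited table (adjusted p = 0.531).

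The inhibitory Smads gave the callosum's single call. Smad7, which blocks both BMP and TGF-beta receptors and is itself induced by them, had 43.8 CPM in Qk-KO callosum and 26.9 CPM in WT callosum. It rose by 0.68 ± 0.15 in the authors' deposited table, 1.60-fold with a 95% interval of 1.30 to 1.98-fold (adjusted p = 9.10e-04). In culture Smad7 had 16.9 CPM in libraries labelled Qk-KO and 10.7 CPM in those labelled WT. The change there was close in size, 0.59 ± 0.34 in the authors' deposited table, but with an SE that left the adjusted p at 0.193. Smad6, the inhibitor that acts mainly on the BMP branch, was the lowest member in both tables. It had 3.28 CPM in cultures labelled Qk-KO and 2.17 CPM in those labelled WT, a change of 0.52 ± 0.34 in the authors' deposited table (adjusted p = 0.278). In callosum Smad6 had 1.72 CPM in Qk-KO and 2.01 CPM in WT, and its change of -0.25 ± 0.29 in the authors' deposited table (adjusted p = 1.00) allowed anything from 0.57 to 1.25-fold.

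The Id genes did not move as a group in culture. Id1 had 36.5 CPM in libraries labelled Qk-KO and 21.0 CPM in those labelled WT. It rose by 0.72 ± 0.23 in the authors' deposited table, 1.65-fold with a 95% interval of 1.20 to 2.27-fold (adjusted p = 0.00986). Id3, which often varies together with Id1, had 83.4 CPM in libraries labelled Qk-KO and 49.6 CPM in those labelled WT. The change of Id3 was 0.67 ± 0.28 in the authors' deposited table, with an adjusted p of 0.0581 that became 0.0466 when only genes of at least 100 mean normalized counts were tested and 0.0295 by library totals. Id2 went the other way, with 143 CPM in libraries labelled Qk-KO and 203 CPM in those labelled WT. It fell by 0.58 ± 0.20 in the authors' deposited table, 1.49-fold lower (adjusted p = 0.0173). Id4 had 98.2 CPM in libraries labelled Qk-KO and 101 CPM in those labelled WT, and its change was -0.12 ± 0.21 in the authors' deposited table (adjusted p = 0.739). Summed over the 4 genes, the level was 362 CPM in cultures labelled Qk-KO and 374 CPM in cultures labelled WT.

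In callosum none of the 4 Id genes passed the DESeq2 test, and 1 of them, Id3, had an unadjusted p under 0.05. Id3 had 28.7 CPM in Qk-KO and 21.6 CPM in WT, a change of 0.39 ± 0.20 in the authors' deposited table (p = 0.0492, adjusted p = 0.616). Id1 had 10.5 CPM in Qk-KO and 8.93 CPM in WT, with 0.21 ± 0.23 in the authors' deposited table. Id2 had 75.3 CPM in Qk-KO and 77.8 CPM in WT, with -0.07 ± 0.14 in the authors' deposited table. Id4 had 43.1 CPM in Qk-KO and 46.4 CPM in WT, with -0.13 ± 0.18 in the authors' deposited table. The adjusted p of Id1, Id2 and Id4 was 1.00 each, and their 95% intervals spanned 0.84 to 1.59-fold, 0.79 to 1.15-fold and 0.72 to 1.16-fold. The sign of each Id gene was the same in callosum as in culture.

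Levels were set between genes per kilobase of annotated exon, with the exons of all annotated transcripts of a gene joined. The length of the transcripts expressed is not known here, so orders between genes are approximate. By this measure Id2 stood first in both genotypes of both tables. It had 58.8 CPM per kilobase in cultures labelled Qk-KO and 83.2 in cultures labelled WT, and 30.9 in Qk-KO callosum and 31.9 in WT callosum. In cultures labelled Qk-KO the order went on with Id3 (46.6 CPM per kilobase), Bmpr1a (37.5), Id1 (31.5), Bmp4 (30.2), Id4 (25.5), Bmpr1b (13.8), Bmp7 (4.06), Smad7 (3.75) and Smad6 (1.02). In cultures labelled WT, Bmpr1a (39.8) came next after Id2, and Bmp4 (8.49) stood below Id3 (27.7), Id4 (26.3), Bmpr1b (18.5) and Id1 (18.1) and above Bmp7 (2.50), Smad7 (2.36) and Smad6 (0.677). Bmp4 thus stood close to Id1 in cultures labelled Qk-KO and below Bmpr1b and Id1 in cultures labelled WT. In Qk-KO callosum Smad7 (9.68 CPM per kilobase) stood above Id1 and Bmpr1b, and in WT callosum (5.95) below both. The spread behind these orders is not in the fitted columns, so neighbours such as Id3 (12.0) and Id4 (12.1) in WT callosum cannot be ordered.

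**Figure D2:**
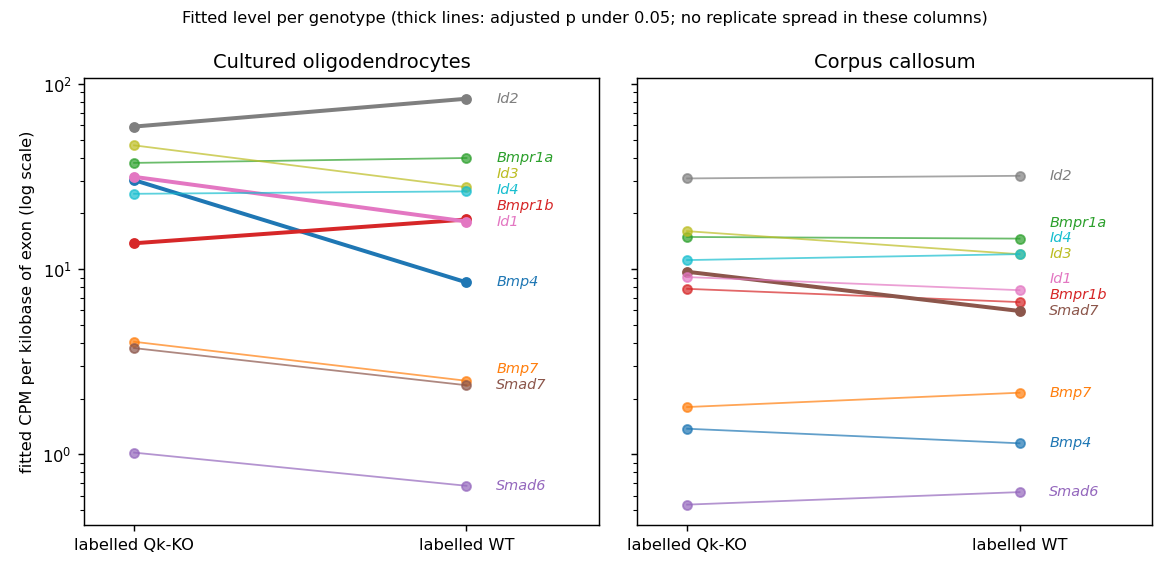
Fitted CPM per kilobase of exon on a log axis for each member in libraries labelled Qk-KO (left point) and WT (right point), in culture and in callosum, with thick lines for genes past an adjusted p of 0.05. Bmp4 has 30.2 in cultures labelled Qk-KO and 8.49 in cultures labelled WT, and Smad7 9.68 in Qk-KO callosum and 5.95 in WT callosum.

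The promoters of Bmp4, Id2, Id3 and Id4 are shown because these are the ligand with the largest change and the Id genes whose promoter was at hand. No promoter was at hand for Id1, Bmp7 and Smad7. The Id gene called higher in culture and the member called in callosum are therefore missing here. Each line gives the 250 bases before the transcript start in RefSeq (GRCm38.p6), 5′ to 3′ on the gene's strand. The windows of Id2 and Id3 lie inside these genes as annotated in GENCODE M21, from which exon lengths were taken (chr12:25093799-25097140 and chr4:136143497-136145755). The annotations thus place these starts differently. Capitals mark GGCGCC and GGAGCC on either strand, the GC-rich letters that BMP-activated Smads are known to bind.
Bmp4, chr14:46390670-46390919, minus strand: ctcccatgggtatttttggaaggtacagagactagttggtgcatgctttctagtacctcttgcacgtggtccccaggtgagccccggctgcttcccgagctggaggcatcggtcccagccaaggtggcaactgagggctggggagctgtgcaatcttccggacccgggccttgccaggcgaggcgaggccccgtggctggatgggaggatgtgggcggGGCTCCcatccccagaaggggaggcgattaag
Id2, chr12:25096093-25096342, minus strand: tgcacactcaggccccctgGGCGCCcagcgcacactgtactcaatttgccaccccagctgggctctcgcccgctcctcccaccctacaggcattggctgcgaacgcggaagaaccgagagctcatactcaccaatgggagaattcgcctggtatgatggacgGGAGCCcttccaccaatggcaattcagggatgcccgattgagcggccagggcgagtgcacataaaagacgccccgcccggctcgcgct
Id3, chr4:136143572-136143821, plus strand: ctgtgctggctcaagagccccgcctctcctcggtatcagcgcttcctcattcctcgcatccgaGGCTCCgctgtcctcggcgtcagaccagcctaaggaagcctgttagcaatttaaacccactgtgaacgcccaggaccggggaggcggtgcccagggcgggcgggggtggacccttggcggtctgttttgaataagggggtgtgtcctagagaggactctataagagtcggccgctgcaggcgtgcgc
Id4, chr13:48260866-48261115, plus strand: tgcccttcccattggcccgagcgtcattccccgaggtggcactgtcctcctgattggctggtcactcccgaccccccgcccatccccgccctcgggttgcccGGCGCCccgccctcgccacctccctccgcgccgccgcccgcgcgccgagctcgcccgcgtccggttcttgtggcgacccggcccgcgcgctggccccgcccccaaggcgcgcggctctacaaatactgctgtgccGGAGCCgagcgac
Bmp4 and Id3 held 1 match each, and Id2 and Id4 held 2 each. Id2, which fell in culture, and Id4, which did not pass, thus held as many matches as each other, and Bmp4 and Id3 as many as each other.

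Promoter windows of 7 members were at hand, 9 windows in all, each from 250 bases before to 50 after a start. Of these, 3 belong to Bmpr1b and 2 of the 3 overlap, so the 9 are not independent. GGAGCC stood in 7 of the 9 windows, beside 30.8% of all 32851 mouse promoter windows of the same length, and GGCGCC in 3 of 9, beside 11.9%. The short Smad box GTCT stood in 8 of 9 (88.0% of all windows) and the E-box CANNTG, the letters that bHLH factors bind, in 5 of 9 (72.3%), counting both strands. In the 150 bases before the start the counts were 6 of 9 for GGAGCC (17.9% of all promoters), 1 of 9 for GGCGCC (7.01%), 6 of 9 for GTCT (64.6%) and 3 of 9 for CANNTG (47.7%). GGCGCC and CANNTG read the same on both strands, and matches of different motifs may overlap. The 4 printed promoters had a GC content of 63.2% (Bmp4), 62.8% (Id2), 62.8% (Id3) and 75.6% (Id4), beside a median of 52.4% over all promoters. The part of GC content in the counts of matches was not tested. These matches describe the letters and say nothing of binding.

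The rest of the BMP pathway was read from gene lists by role. In culture every list held at least 1 gene that passed, where 28.6% of all tested genes passed (13.3% higher and 15.2% lower). The calls among Smads, intracellular regulators and Id-bound factors were all higher, and the other lists had calls in both directions. Of 8 tested ligands, 1 rose (Bmp4) and 1 fell. The one that fell was Bmp3, a ligand known to oppose other BMPs, with 1.06 CPM in libraries labelled Qk-KO and 2.03 CPM in those labelled WT (-1.01 ± 0.36 in the authors' deposited table, adjusted p = 0.0226). Gdf11, the most abundant ligand of the list, had -0.30 ± 0.17 in the authors' deposited table and did not pass. Of 9 tested receptors and co-receptors, 1 rose and 1 fell (Bmpr1b). Acvr2a, a type II receptor shared with activins, rose to 33.5 CPM in libraries labelled Qk-KO, against 22.4 CPM in those labelled WT (0.50 ± 0.20 in the authors' deposited table, adjusted p = 0.0449). Of 6 Smads of the BMP branch, Smad4, the partner shared with the TGF-beta branch, rose by 0.39 ± 0.16 in the authors' deposited table (adjusted p = 0.0482), and Smad5 had -0.09 ± 0.16 there. The calls of Acvr2a and Smad4 were lost when no filter on low means was applied before adjustment (adjusted p = 0.0719 and 0.0772).

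Secreted BMP antagonists held the widest changes of the pathway in culture. Of 11 tested, 3 were called higher and 3 lower, beside 13.3% and 15.2% of all tested genes. Noggin (Nog), which binds BMP4 directly, rose 3.22-fold, with 6.44 CPM in libraries labelled Qk-KO and 1.89 CPM in those labelled WT (1.69 ± 0.28 in the authors' deposited table, adjusted p = 1.93e-08). Nbl1, a DAN family antagonist, fell 6.17-fold, with 11.1 CPM in libraries labelled Qk-KO and 64.9 CPM in those labelled WT (-2.63 ± 0.30 in the authors' deposited table, adjusted p = 4.25e-17). Chrdl1, a chordin-like antagonist (-1.30 ± 0.20), and Fstl1, a follistatin-like secreted protein (-0.60 ± 0.13), also fell in the authors' deposited table. Fst, the activin and BMP binder follistatin, and Sostdc1, both chosen after their values were seen, also rose (1.82 ± 0.49 and 2.13 ± 0.53 in the authors' deposited table), at levels under 1 CPM in both genotypes. Twsg1, the most abundant antagonist gene that did not pass, had -0.10 ± 0.15 in the authors' deposited table. The summed level of the list was 194 CPM in cultures labelled Qk-KO and 263 CPM in those labelled WT.

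Inside the cell, 3 of 8 regulators rose in culture and none fell, beside 13.3% of all tested genes called higher and 15.2% lower. They were Tob1, an antiproliferative protein that can bind Smads (0.53 ± 0.12), Skil, a Smad corepressor (0.56 ± 0.17), and Usp9x, a deubiquitinase that acts on Smad4 (0.38 ± 0.14), all in the authors' deposited table. The most abundant one that did not pass, the corepressor gene Ski, had 0.14 ± 0.16 in the authors' deposited table. Among 5 tested BMP targets other than Id genes, 2 rose and 2 fell. Atoh8, a bHLH factor, rose 3.05-fold, with 15.8 CPM in libraries labelled Qk-KO and 4.91 CPM in those labelled WT (1.61 ± 0.26 in the authors' deposited table, adjusted p = 1.56e-08), and Hes1 rose by 0.55 ± 0.21 (adjusted p = 0.0404 in the authors' deposited table). Hey2 and Hey1, transcriptional repressors that Notch also controls, fell (-1.50 ± 0.26 and -0.58 ± 0.14 in the authors' deposited table), while Msx1 had 0.24 ± 0.31 and did not pass. Usp9x and Hes1 lost their calls when no filter on low means preceded the adjustment (adjusted p = 0.0553 and 0.0648).

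Factors that Id proteins bind or oppose rose in 5 of 7 cases in culture, beside 13.3% of all tested genes called higher. All 7 values were positive, with a median of 0.61, beside 51.1% of all tested genes with a positive value. Olig2 and Olig1, which specify the oligodendrocyte lineage, rose (0.81 ± 0.16 and 0.61 ± 0.14 in the authors' deposited table). Olig2 had 508 CPM in libraries labelled Qk-KO and 274 CPM in those labelled WT. The E protein genes Tcf4 (0.86 ± 0.18) and Tcf3 (0.47 ± 0.13, chosen after its value was seen) rose as well, whereas the E protein gene Tcf12 had 0.11 ± 0.11 in the authors' deposited table and did not pass. Hes5, a Notch effector, rose by 1.49 ± 0.21 in the authors' deposited table. Of 12 tested genes of the TGF-beta and activin branch, 4 rose and 3 fell, beside 13.3% and 15.2% of all tested genes. The receptor gene Tgfbr1 (0.63 ± 0.16) and the activin subunit gene Inhbb (0.67 ± 0.20) rose, and the ligand gene Tgfb2 (-0.88 ± 0.17) and the corepressor gene Tgif1 (-1.01 ± 0.20) fell in the authors' deposited table. The remaining calls, chosen after their values were seen, were Acvr1b (0.49 ± 0.15) and Tgfb3 (0.69 ± 0.27), which rose, and Tgfb1 (-1.73 ± 0.62), which fell, in the authors' deposited table. The call of Tgfb3 was lost with no filter on low means (adjusted p = 0.0606). Smad2 had -0.10 ± 0.14 there and did not pass.

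In callosum, where 2.32% of all tested genes were called, almost nothing else in the pathway passed. None of 7 tested ligands, 11 receptors, 13 antagonists, 8 intracellular regulators, 7 other targets and 7 Id-bound factors passed the DESeq2 test. At an unadjusted p under 0.05 the counts in these lists were 0, 2, 3, 1, 1 and 3, beside 8.08% of all tested genes. The most abundant tested gene of each was Bmp3 (0.28 ± 0.47), Bmpr2 (-0.02 ± 0.15, turning to 0.01 by library totals), Crim1 (-0.32 ± 0.13), Usp9x (-0.10 ± 0.09), Hey1 (-0.01 ± 0.12, turning to 0.01 by library totals) and Tcf4 (-0.04 ± 0.13) in the authors' deposited table. Of the Smads, Smad5 was the most abundant (0.06 ± 0.16 in the authors' deposited table), and Smad7 remained the single call. Of 14 genes of the TGF-beta branch, 2 rose, and both encode TGF-beta receptors. Tgfbr1 had 92.7 CPM in Qk-KO and 54.0 CPM in WT (0.76 ± 0.13 in the authors' deposited table, adjusted p = 2.48e-06), and Tgfbr2 had 31.9 CPM in Qk-KO and 19.8 CPM in WT (0.66 ± 0.18 in the authors' deposited table, adjusted p = 0.0113). Acvr1b, the most abundant gene of that list, had -0.04 ± 0.12 in the authors' deposited table.

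**Figure D3:**
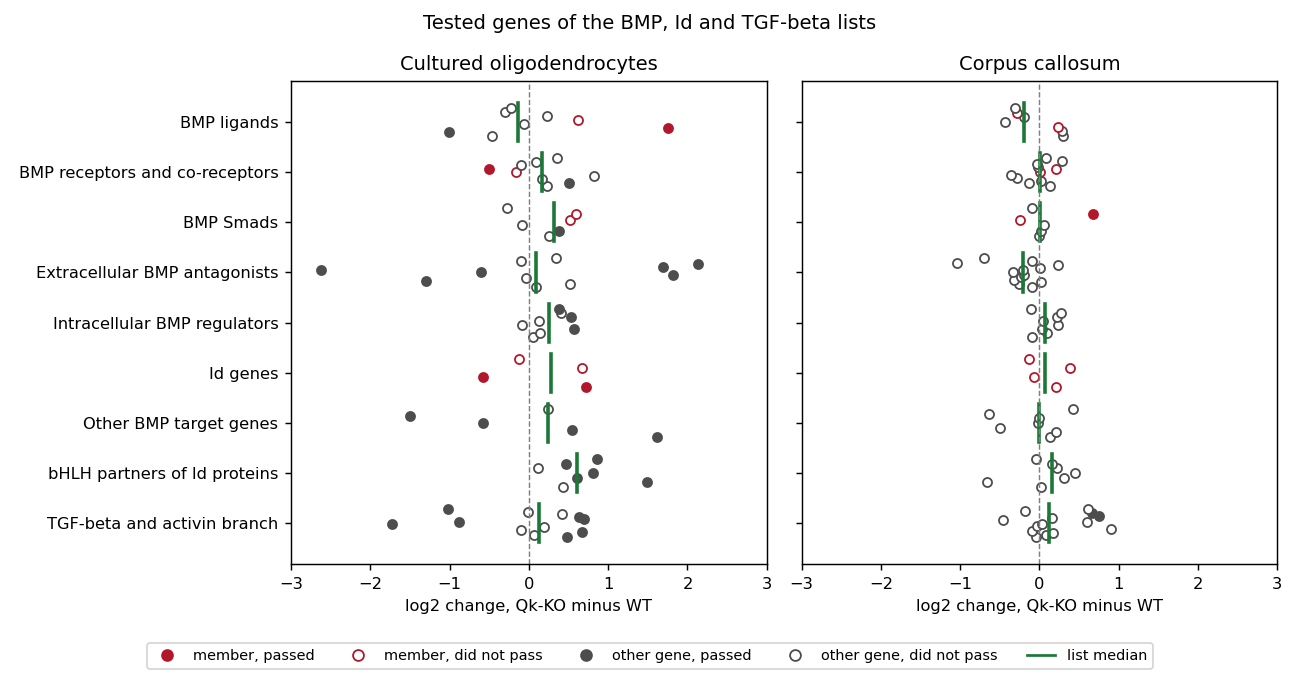
Log2 change (Qk-KO minus WT) of each tested gene in 9 lists by role, in culture (left) and callosum (right). Filled points passed an adjusted p of 0.05, red outlines and fills are the members and green bars are list medians. In culture, filled points lie on both sides of 0 among the antagonists, from Nbl1 at -2.63 to Sostdc1 at 2.13, and in callosum 3 points are filled, Smad7, Tgfbr1 and Tgfbr2.

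Both systems are mixtures, and fewer cells of a type cannot be told apart from less RNA per cell in such samples. In culture, 13.3% of all tested genes were called higher and 15.2% lower. Astrocyte markers fell there in 10 of 13 cases and none rose. Their summed level was 4414 CPM in libraries labelled Qk-KO and 14536 CPM in those labelled WT. Neuron markers rose in 6 of 8 cases and none fell, with summed levels of 1737 CPM in libraries labelled Qk-KO and 738 CPM in those labelled WT. Cell cycle genes rose in 8 of 10 cases and none fell (230 CPM in libraries labelled Qk-KO, 137 CPM in those labelled WT). Of 8 precursor markers, 3 fell and none rose (1766 and 2486 CPM), and of 12 oligodendrocyte markers, 2 rose and 2 fell (2605 CPM in libraries labelled Qk-KO, 3247 CPM in those labelled WT). Neural stem cell markers rose in 3 and fell in 1 of 8 cases (1884 CPM in libraries labelled Qk-KO, 1619 CPM in those labelled WT). Microglia and endothelial markers were near 0, at 12.4 and 20.7 CPM and at 3.10 and 3.72 CPM for Qk-KO and WT, with C1qa, C1qb, Trem2, Cldn5, Cdh5 and Emcn without reads. Mural markers (2 of 6 fell, none rose; 52.5 and 45.2 CPM), fibroblast markers (no call among 2 by DESeq2, 0 at an unadjusted p under 0.05; 164 and 194 CPM, nearly all of it Pdgfra, which precursors also express) and ependymal and choroid plexus markers (2 of 5 fell, none rose; 55.2 and 100.4 CPM) were low. The part of these shifts in the values of Bmp4, Bmpr1b, Id1 and Id2 was not tested.

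In callosum the marker lists with called genes were those of microglia and, less, of oligodendrocytes and astrocytes. Of all genes tested there, 2.09% were called higher and 0.231% lower. Microglia markers rose in 8 of 10 cases and none fell, with a summed level of 834 CPM in Qk-KO and 392 CPM in WT. Smad7, Tgfbr1 and Tgfbr2 rose in the same comparison, but without replicate spread no covariation with any marker list could be read. The part of cell makeup in those 3 changes was not tested. Oligodendrocyte markers rose in 4 of 12 cases (8168 CPM in Qk-KO, 7631 CPM in WT) and astrocyte markers in 2 of 13 (6402 CPM in Qk-KO, 5255 CPM in WT), and none of either list fell. No precursor, neuron, endothelial, mural, fibroblast, ependymal, cell cycle or stem cell marker passed the DESeq2 test, with 1, 1, 1, 1, 1, 4, 1 and 2 of them at an unadjusted p under 0.05. Their summed levels were 520 and 475 CPM, 5335 and 5758 CPM, 191 and 203 CPM, 234 and 252 CPM, 197 and 195 CPM, 1181 and 2018 CPM, 129 and 124 CPM, and 216 and 167 CPM for Qk-KO and WT. The lower sum of the ependymal and choroid plexus list is mostly Ttr, a choroid plexus transcript at 1081 CPM in Qk-KO and 1865 CPM in WT. Of the 7 tested genes of that list, 6 had a negative value, and the median log2 change was -0.66. Its 4 genes at an unadjusted DESeq2 p under 0.05 were all lower. They were Ttr (-0.81 ± 0.38), Kl (-0.86 ± 0.38), Folr1 (-0.82 ± 0.31) and Clic6 (-0.66 ± 0.28) in the authors' deposited table.

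The change differed between culture and callosum for 2 of the 10 members, beside 21.5% of the 16601 genes tested in both tables. In 1 member culture lay above callosum (9.84% of genes) and in 1 below (11.7%). The test was a two-sided z test of the difference between both deposited changes. Bmp4 changed by 1.76 in culture and 0.24 in callosum, a difference of 1.52 ± 0.39 (adjusted p = 9.95e-04). Bmpr1b changed by -0.50 in culture and 0.21 in callosum, a difference of -0.72 ± 0.18 (adjusted p = 8.84e-04). Bmp7, with 0.62 in culture and -0.28 in callosum, differed by 0.90 ± 0.36 and missed the threshold (adjusted p = 0.0535). That p was 0.0433 with only genes of at least 100 mean normalized counts and to 0.0369 by library totals. Smad6 had a difference of 0.77 ± 0.45, Id1 of 0.51 ± 0.33 and Id2 of -0.51 ± 0.24, and none passed (adjusted p = 0.237, 0.294 and 0.130). The differences of Smad7 (-0.09 ± 0.37), Id3 (0.28 ± 0.35), Id4 (0.01 ± 0.28) and Bmpr1a (-0.17 ± 0.19) lay within 1 SE of 0, with 95% intervals of -0.82 to 0.64, -0.39 to 0.96, -0.53 to 0.55 and -0.55 to 0.21. Smad7 was thus called in callosum and not in culture without a detectable difference between them. The systems differ in cell makeup, agent and time as well as in Qk status, so the difference belongs to the system as a whole.

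**Figure D4:**
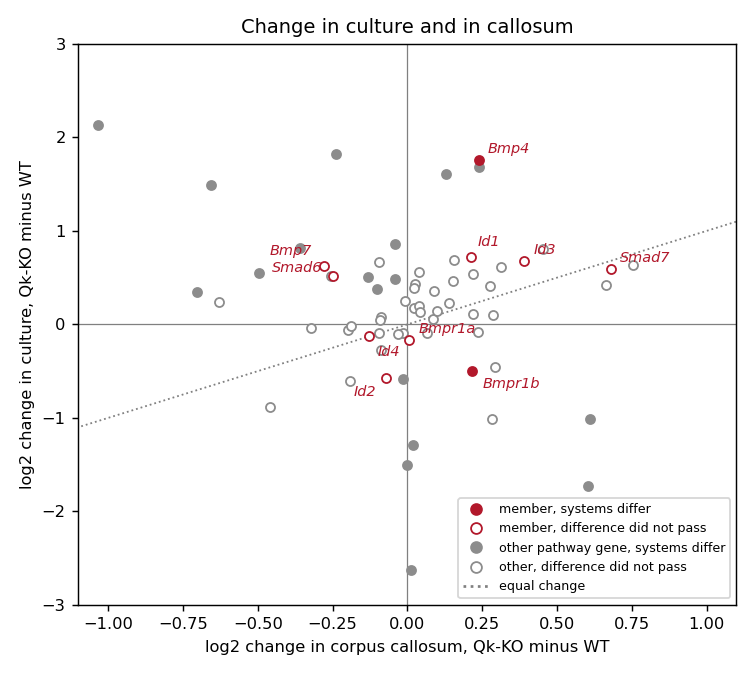
Log2 change (Qk-KO minus WT) in culture (vertical axis) against callosum (horizontal axis) for members (red, named) and other pathway genes (grey), filled where the difference between systems passed an adjusted p of 0.05, with a dotted line of equal change. Among the members Bmp4 and Bmpr1b are filled, above and below the line, and Smad7 lies near it at 0.59 in culture and 0.68 in callosum.

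Some members overlap other annotated transcripts. In GRCm38, Bmp4 (chr14:46383520-46390669) and Bmpr1a (chr14:34410734-34503341) share a chromosome, as do Id1 (chr2:152736251-152737410) and Bmp7 (chr2:172868012-172940321). The exons of Bmp4, Bmpr1a and Id4 overlap genes annotated on the opposite strand, and the counting is not stated to use strand. Without strand, reads of these pairs cannot be told apart, and the levels of the partners carry the same limit. Gm15217 had 0.519 CPM in cultures labelled Qk-KO and 0.240 CPM in those labelled WT, beside 68.0 and 19.1 CPM for Bmp4. Gm17110, which overlaps Bmpr1a, had 0.386 CPM in cultures labelled Qk-KO and 0.450 CPM in those labelled WT. A330033J07Rik had 2.11 CPM in cultures labelled Qk-KO and 4.21 CPM in those labelled WT, beside 98.2 and 101 CPM for Id4. Gm49291, which also overlaps Id4, was not analysed here.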

How the data were processed

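The series holds RNA-seq of 14 libraries, and 1 table per system was used. Per the submitters' processing notes, the build was mm10 and the tools were DESeq2, featureCounts, TopHat2 (2.0.14) and FastQC. Which annotation, strand setting and model were used is not given in the sources used here. The library columns hold log2 values that the authors deposited. Within a genotype they differ by 1 constant factor at every gene, and between genotypes by the deposited change plus a constant, within 1e-09. They are therefore log2 fitted counts plus 1, without replicate spread, and the planned count test could not be run. The authors' mean column is a signal of normalized counts. The deposited score is the log2 change over its standard error, and the deposited p-value columns hold the Wald p and its Benjamini-Hochberg value. The deposited direction, WT over Qk-KO, was turned round. Genes with a mean under 8.52 in culture or 8.08 in callosum have no adjusted p. Some genes above these means lack it too, such as Gdf11 in callosum.

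Fitted CPM was computed from each library's fitted total. Its ratio between genotypes exceeds the deposited change by 0.08 log2 units in culture and 0.02 in callosum. Exon lengths and positions come from GENCODE M21 (GRCm38), which held 46488 of 46983 identifiers, and promoters from RefSeq. The z test between systems (Python 3.11.15, scipy 1.17.1) was adjusted over all genes tested in both tables and was tested on simulated data. The simulated errors were normal with the deposited SE. They therefore could not show whether those SE hold with 3 or 4 libraries per group. Intervals of 95% use the normal distribution and the deposited SE. The members, lists and tests were chosen with earlier results of these data known. The text names the members, Qk, and per pathway list up to 4 called genes with the smallest p and the most abundant uncalled one. Marker lists are given by counts and sums. Alternatives were a threshold of 0.01, a minimum of 2-fold, a Student reference, no or a stricter filter on the mean, and scaling by library totals. Identity between Id proteins was not computed.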

Additional observations from a re-analysis of the deposited data

Results flagged for a closer look

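Genes of the pathway are given here because their log2 change in culture minus that in callosum passed the two-sided z test at an adjusted p under 0.05. All values are such differences ± SE. Among the members these were Bmp4 (1.52 ± 0.39, adjusted p = 9.95e-04) and Bmpr1b (-0.72 ± 0.18, adjusted p = 8.84e-04). Among the listed genes, the difference was above 0 for Hes5 (2.15 ± 0.32, adjusted p = 4.95e-10), Sostdc1 (3.16 ± 0.63, adjusted p = 1.17e-05), Tcf4 (0.91 ± 0.23, adjusted p = 7.27e-04), Hes1 (1.04 ± 0.27, adjusted p = 0.00123), Atoh8 (1.48 ± 0.40, adjusted p = 0.00191) and Nog (1.45 ± 0.39, adjusted p = 0.00204). It was also above 0 for Fst (2.06 ± 0.58, adjusted p = 0.0036), Usp9x (0.48 ± 0.17, adjusted p = 0.0287), Acvr1b (0.53 ± 0.19, adjusted p = 0.0317), Acvr2a (0.63 ± 0.23, adjusted p = 0.0336), Bambi (1.18 ± 0.45, adjusted p = 0.0418) and Vwc2 (1.04 ± 0.41, adjusted p = 0.0488). It was below 0 for Nbl1 (-2.64 ± 0.38, adjusted p = 3.21e-10), Hey2 (-1.50 ± 0.34, adjusted p = 1.80e-04), Tgif1 (-1.62 ± 0.40, adjusted p = 5.59e-04), Tgfb1 (-2.33 ± 0.69, adjusted p = 0.00542), Chrdl1 (-1.31 ± 0.39, adjusted p = 0.00624) and Hey1 (-0.57 ± 0.19, adjusted p = 0.0162). With a Student reference, Acvr1b, Acvr2a, Bambi, Chrdl1, Hey1, Tgfb1, Usp9x and Vwc2 did not pass, at adjusted p-values between 0.0541 and 0.132. At an adjusted p under 0.01, Acvr1b, Acvr2a, Bambi, Hey1, Usp9x and Vwc2 did not pass. Of all genes tested in both tables, 9.84% had a difference above 0 and 11.7% below 0 by the same rule. Samples far from the rest of their group could not be looked for, since the library columns hold no replicate spread.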

How the results depend on the processing

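No paired analysis was possible because the library columns are fitted means without replicate spread, although the labels pair the cultures by code and passage, and leaving out single replicates was not run for the same reason. Requiring at least 2-fold left 190 genes and 0 members in callosum and 1890 genes and 1 member, Bmp4, in culture. With a Student reference for the deposited DESeq2 score (6 and 4 residual degrees of freedom), 8 genes and 0 members passed in callosum and 0 genes and 0 members in culture. Before adjustment, 900 genes and 1 member (Smad7) in callosum and 4187 genes and 4 members (Bmp4, Bmpr1b, Id1 and Id2) in culture had a Student p under 0.05. The adjusted Student p was 0.391 for Smad7 in callosum and 0.0723, 0.167, 0.181 and 0.198 for those 4 in culture. The difference between systems was called for 2358 genes at an adjusted p under 0.01 and 1970 with a Student reference, and Bmp4 and Bmpr1b were among both. Id2 in culture did not pass at 0.01. With only genes of at least 100 mean normalized counts, or with library totals as the scale, Bmp7 and Id3 joined the culture calls. No member changed its sign under library totals. Bmp4 and Smad6 in callosum were too low for the stricter filter on the mean.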

Other observations

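Genes with a pair of changes (callosum, culture) nearest to that of each Id gene were sought among 10417 other genes with a mean of at least 100 normalized counts in both tables. The measure was the Euclidean distance over these 2 comparisons on the log2 scale, and it says nothing of shared function. Nearest to Id1 were Arhgef2, Lrrc8b and Il17ra, at distances of 0.02, 0.02 and 0.03. Nearest to Id3 were Edem1, Trim13 and Vat1, at 0.02, 0.04 and 0.05. Nearest to Id2 were Nek1, Pibf1 and Acsf3, and nearest to Id4 were Gtf2h5, Tesk1 and Mrpl36, all within 0.01. Within a distance of 0.1 there were 48 genes around Id1, 11 around Id3, 254 around Id2 and 515 around Id4. By these point values, Id3 had the fewest genes near it and Id4 the most. The deposited SE of the 4 Id genes, from 0.14 (Id2 in callosum) to 0.28 (Id3 in culture), is larger than this radius. The named neighbours are therefore not resolved, and the counts hold for the point values only.

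Several ligand genes of the family could not be read. Bmp10 had no reads in either table, and 8 of 16 listed ligands in culture and 9 of 16 in callosum had no adjusted p. Gdf11 in callosum, at 22.2 CPM in Qk-KO and 29.0 CPM in WT, was among these although its level was well above that of Bmp4. Its change of -0.41 ± 0.26 in the authors' deposited table carries neither a p nor an adjusted p. The other ligands there with reads but no adjusted p kept an unadjusted p.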
